A study of Homo sapiens with 9 samples.

Results

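The 10 hypoxia-inducible genes HIF1A, VEGFA, CA9, CA12, NDRG1, BNIP3, BNIP3L, EGLN1, EGLN3 and ADM were followed in cells of the line MDA-MB-231 under 2-DG (2-deoxy-D-glucose). They were taken by name, and all 10 were found among the 61552 genes in the files and among the 16571 genes tested. MDA-MB-231 is an established human cell line of triple-negative breast cancer. For 24 h the cells received phosphate-buffered saline as the control, 10 mM 2-DG or 20 mM 2-DG, and 3 libraries were made from each condition. All libraries came from this 1 line, grown in DMEM with serum, and oxygen was not varied between the groups. The labels do not say that the 3 libraries of a condition came from separate cultures, so the p-values measure the spread between these libraries, which may be technical.

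Cells sense oxygen through hypoxia-inducible factors (HIFs). In the presence of oxygen, prolyl hydroxylases such as EGLN1 and EGLN3 mark the alpha subunit HIF1A for ubiquitination by the VHL complex and for degradation, and at low oxygen HIF1A persists, pairs with ARNT and binds short DNA sites that hold ACGTG or GCGTG. Its targets serve blood vessel growth (VEGFA, ADM), pH control (CA9, CA12), mitophagy (BNIP3, BNIP3L) and glycolysis, and include EGLN1 and EGLN3 as feedback. HIF1A is regulated mainly at the protein level, which RNA sequencing does not measure. 2-DG is a glucose analogue that enters cells like glucose and blocks glycolysis, and several glycolytic genes are themselves HIF targets.

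To show where the letters of the HIF site lie, the RefSeq promoter windows (build GRCh38.p14, 250 bases before to 50 bases after the start) were searched for ACGTG and GCGTG on both strands. Windows were found for 7 of the 10 genes, those of VEGFA, NDRG1 and BNIP3L not among them. Of all 35116 windows, 21.4% held ACGTG, 36.5% held GCGTG and 48.4% held either. EGLN3 held neither. BNIP3 held 2 matches of ACGTG, which overlap on opposite strands, and 4 of GCGTG, and CA12 held a further GCGTG after its start. HIF1A had a second window with neither motif. Below are 30 bases before the RefSeq start of each gene with a match there, 5′ to 3′ on the strand of the gene, with the matches in capitals (CACGT and CACGC are the motifs read on the other strand). Except for the HIF1A stretch, the RefSeq starts are not those of the gene positions further below, which are from GENCODE release 29. The stretches of CA9, CA12, EGLN1 and ADM, 4 of the 6, lie inside the GENCODE gene. A match is a description of the letters and not evidence of binding.
HIF1A, chr14:61695296-61695325, plus strand: ttggctgagagcgGCGTGggctggggtggg
CA9, chr9:35673897-35673926, plus strand: ctcgtttccaatgCACGTacagcccgtaca
CA12, chr15:63382064-63382093, minus strand: ggcggatctcaccCACGCctgccagcagct
BNIP3, chr10:131982041-131982070, minus strand: cgcgCACGCgccgCACGTGccaCACGCacc
EGLN1, chr1:231422288-231422317, minus strand: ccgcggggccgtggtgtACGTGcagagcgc
ADM, chr11:10304959-10304988, plus strand: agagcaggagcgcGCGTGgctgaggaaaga

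The 10 genes did not move in 1 direction. The pH genes CA9 and CA12 fell at both doses, NDRG1 rose at both doses, VEGFA rose at 20 mM 2-DG, and HIF1A and EGLN3 fell at 20 mM 2-DG. BNIP3, BNIP3L, EGLN1 and ADM did not pass the test at either dose. A gene was called at an adjusted p under 0.05 from limma's test on log2(FPKM + 1), with Benjamini-Hochberg adjustment over all genes tested. FPKM is the read count scaled by gene length and library total, and log2 fold changes below are on the log2(FPKM + 1) scale, which understates the change of low genes. At 10 mM 2-DG, 1 of the 10 genes was called higher and 2 lower, against 12.1% and 17.5% of all genes tested. At 20 mM 2-DG, 2 were called higher and 4 lower, against 15.3% and 21.6% of all genes. Of those lower at 20 mM, HIF1A lost its call in 6 of 17 alternative fits and EGLN3 in 9 of 17. The median log2 fold change of the 10 genes at 20 mM was -0.03, and that of all genes was -0.02. With the thresholds in the methods of the study (p under 0.05 and absolute log2 fold change over 1), 0 of the 10 genes were called at either dose on the log2(FPKM + 1) scale. The study set them on DESeq2 fold changes, which need counts. In limma-voom on reads recovered from the FPKM values, which has no pseudocount of 1, the log2 fold change of CA9 was -1.34 at 10 mM and -2.17 at 20 mM and that of CA12 was -1.04 at 20 mM, all past these thresholds (adjusted p = 0.0423, 0.00699 and 1.18e-05). The shares of all genes called by these thresholds on the log2(FPKM + 1) scale were 0.579% higher and 1.16% lower at 10 mM. At 20 mM they were 0.966% higher and 1.96% lower. The shares of all genes past the thresholds in limma-voom were not computed, so its CA9 and CA12 values have no such background here. In bulk RNA, fewer cells that use a gene and less RNA per cell cannot be told apart.

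**Figure D1:**
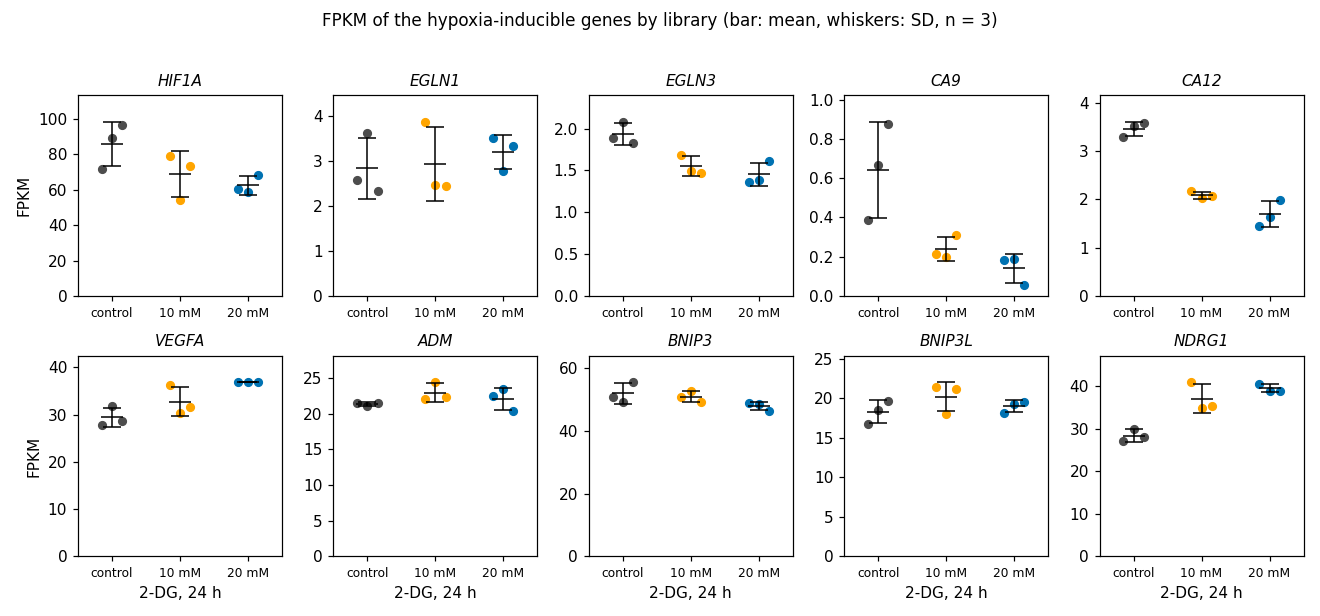
FPKM of the 10 genes in each of the 9 libraries, by condition, with each y axis starting at 0; points are libraries, the long bar is the mean and the whiskers are 1 SD (n = 3). The 3 treated libraries at 20 mM 2-DG all lie below the control for HIF1A, EGLN3, CA9, CA12 and BNIP3, and all above it for VEGFA and NDRG1.

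HIF1A, the oxygen-regulated subunit itself, had the highest mean FPKM of the 10 genes in each condition. Its FPKM was 71.8, 89.2 and 96.4 in the control, 79.2, 54.2 and 73.5 at 10 mM 2-DG, and 60.5, 58.6 and 68.5 at 20 mM 2-DG. The control and 10 mM libraries overlapped, and every 20 mM library lay below every control library. The group means were, in the same order, 85.8 ± 12.6, 69.0 ± 13.1 and 62.5 ± 5.25 FPKM (SD, n = 3). At 20 mM HIF1A fell by 0.44 on the log2 scale (SE 0.15, 95% interval -0.77 to -0.12, adjusted p = 0.0379 from limma's test), a mean 27.1% lower. The call was lost when control replicate 2 (adjusted p = 0.0999 from limma), control replicate 3 (0.131), 20 mM replicate 1 (0.103) or 20 mM replicate 2 (0.113) was left out. It was also lost with upper-quartile scaling (0.0762) and when all genes above 0 were tested (0.120). At 10 mM the log2 fold change of -0.32 did not pass the test (adjusted p = 0.133 from limma), and it lay between -0.44 and -0.16 as single libraries were left out. The gene lies on chromosome 14 at 61695513 to 61748259 (GRCh38, plus strand).

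The pH genes fell most. CA12, a membrane carbonic anhydrase with its catalytic side outside the cell, was at 3.28, 3.51 and 3.57 FPKM in the control, at 2.17, 2.03 and 2.06 at 10 mM 2-DG and at 1.46, 1.63 and 1.98 at 20 mM 2-DG. The 3 conditions were apart, with every 20 mM library below every 10 mM library and every 10 mM library below the control. CA12 fell by 0.53 on the log2 scale at 10 mM (adjusted p = 0.00223) and by 0.73 at 20 mM (SE 0.09, adjusted p = 0.000231, both from limma's test). The mean went from 3.46 ± 0.153 to 1.69 ± 0.269 FPKM (SD, n = 3), 51.1% lower. CA12 lies on chromosome 15 at 63321378 to 63382161 (GRCh38, minus strand).

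CA9, the other membrane carbonic anhydrase and a widely used marker of hypoxic tumours, was the least abundant of the 10 genes. Its FPKM was 0.388, 0.666 and 0.876 in the control, 0.214, 0.199 and 0.309 at 10 mM 2-DG, and 0.182, 0.189 and 0.0568 at 20 mM 2-DG. Every treated library was below every control library, and every 20 mM library was below every 10 mM library. These values rest on few reads, in all 109 in the control libraries, 42 in those at 10 mM and 24 in those at 20 mM, with 3 reads in the lowest library. CA9 fell by 0.40 on the log2 scale at 10 mM (adjusted p = 0.0144) and by 0.52 at 20 mM (adjusted p = 0.00290, both from limma's test). Without the pseudocount, the log2 ratio of the mean FPKM at 20 mM was -2.17, 77.8% lower. The log2 ratio of the summed reads was -2.15, with a 95% exact interval of -2.85 to -1.50 that covers counting error only. The call at 10 mM was lost when all genes above 0 were tested (adjusted p = 0.0690 from limma).

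The end of CA9 at its start side overlaps another gene. CA9 lies on chromosome 9 at 35673856 to 35681159 (plus strand), and 643 of its exon bases are shared in GENCODE release 29 with ARHGEF39, a guanine nucleotide exchange factor gene on the other strand at 35658875 to 35675866. ARHGEF39, looked at after its values were seen, was at 1.42, 1.20 and 1.35 FPKM in the control, at 0.502, 0.420 and 0.441 at 10 mM 2-DG and at 0.464, 0.385 and 0.331 at 20 mM 2-DG. It fell by 0.67 on the log2 scale at 10 mM (adjusted p = 7.1e-05) and by 0.74 at 20 mM (adjusted p = 2.51e-05, both from limma's test). Whether the authors counted reads by strand is not given in the sources used here, so reads of CA9 and ARHGEF39 in the shared bases cannot be told apart.

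NDRG1, a gene induced by hypoxia and by cell stress, was the member with the largest log2 rise. Its FPKM was 27.0, 30.0 and 28.0 in the control, 41.0, 34.8 and 35.4 at 10 mM 2-DG, and 40.5, 38.9 and 38.8 at 20 mM 2-DG. Every treated library was above every control library, and the doses overlapped. NDRG1 rose by 0.37 on the log2 scale at 10 mM (adjusted p = 0.00357) and by 0.46 at 20 mM (SE 0.07, adjusted p = 0.000747, both from limma's test). The mean went from 28.3 ± 1.49 to 39.4 ± 0.936 FPKM (SD, n = 3), 39.1% higher. NDRG1 lies on chromosome 8.

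The secreted vascular factors differed from each other. VEGFA, the main growth factor for blood vessels, was at 27.7, 31.7 and 28.7 FPKM in the control, at 36.2, 30.3 and 31.6 at 10 mM 2-DG and at 36.9 in each of the 3 libraries at 20 mM 2-DG. The 10 mM libraries overlapped the control and the 20 mM libraries lay above both. The SD at 20 mM, 0.0259 FPKM or 0.0701% of the mean, was below the counting error of 0.754% expected from the reads. VEGFA rose by 0.32 on the log2 scale at 20 mM (SE 0.07, adjusted p = 0.00749 from limma's test), a mean 25.7% higher, and its 0.15 at 10 mM did not pass (adjusted p = 0.168). ADM, a vasodilator peptide, was at 21.5, 21.1 and 21.5 FPKM in the control, at 22.0, 24.5 and 22.3 at 10 mM and at 22.5, 23.4 and 20.4 at 20 mM. Its 10 mM libraries lay above the control and its 20 mM libraries overlapped it, and neither difference passed the test (adjusted p = 0.304 and 0.632 from limma). The 95% interval of the ADM log2 fold change at 20 mM was -0.10 to 0.19. VEGFA lies on chromosome 6 at 43770184 to 43786487 and ADM on chromosome 11 at 10304680 to 10307397 (GRCh38, plus strand).

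The prolyl hydroxylases also differed. EGLN3 was at 1.89, 2.08 and 1.83 FPKM in the control, at 1.69, 1.50 and 1.47 at 10 mM 2-DG and at 1.36, 1.39 and 1.61 at 20 mM 2-DG. Every treated library was below every control library. EGLN3 fell by 0.26 on the log2 scale at 20 mM (SE 0.08, adjusted p = 0.0361 from limma's test), a mean 24.8% lower, and its -0.20 at 10 mM did not pass (adjusted p = 0.103). This call was lost in 9 of 17 alternative fits, among them those without control replicate 1, 2 or 3 (adjusted p = 0.0640, 0.116 and 0.0544 from limma) and without 20 mM replicate 1 or 2 (0.117 and 0.112). EGLN1, the main oxygen sensor of this family, was at 2.58, 3.62 and 2.35 FPKM in the control, at 3.88, 2.48 and 2.44 at 10 mM and at 3.51, 2.78 and 3.33 at 20 mM. Its libraries overlapped at both doses. Its log2 fold change at 20 mM was 0.14 with a 95% interval of -0.23 to 0.51 (adjusted p = 0.548 from limma). A change of either sign within that range was not excluded. EGLN3 lies on chromosome 14 at 33924231 to 34462774 and EGLN1 on chromosome 1 at 231363751 to 231425044 (GRCh38, minus strand).

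The mitophagy receptors BNIP3 and BNIP3L, which sit in the outer mitochondrial membrane, did not pass the test at either dose. BNIP3 was at 51.0, 49.3 and 55.7 FPKM in the control, at 50.8, 52.7 and 49.2 at 10 mM 2-DG and at 49.1, 48.5 and 46.5 at 20 mM 2-DG. Its 20 mM libraries all lay below the control, by a log2 fold change of -0.11 with a 95% interval of -0.24 to 0.02 (adjusted p = 0.174 from limma). BNIP3L was at 16.8, 18.5 and 19.6 FPKM in the control, at 21.4, 18.1 and 21.2 at 10 mM and at 18.1, 19.3 and 19.5 at 20 mM, and its libraries overlapped throughout. The log2 fold change of BNIP3L was 0.14 at 10 mM and 0.05 at 20 mM (adjusted p = 0.238 and 0.658 from limma). BNIP3 has a processed pseudogene, BNIP3P1, listed at 0.553 FPKM in the control against 52.0 for BNIP3. BNIP3 lies on chromosome 10 at 131966455 to 131982013 (GRCh38, minus strand) and BNIP3L on chromosome 8.

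**Figure D2:**
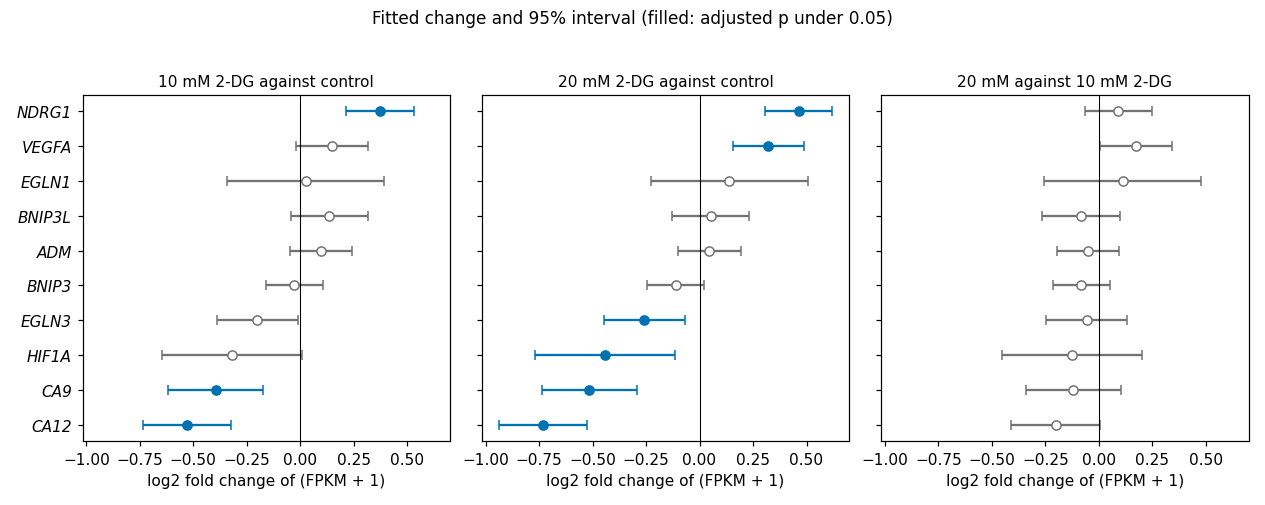
Fitted log2 fold change of FPKM + 1 (x axis) of the 10 genes (rows) in the 3 comparisons, with 95% intervals; filled points have an adjusted p under 0.05 in limma's test. At 20 mM 2-DG the values run from -0.73 for CA12 to 0.46 for NDRG1, and between the doses none is filled.

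Between 20 mM and 10 mM 2-DG, 0 of the 10 genes were called in limma's test, against 0% of all genes. At an unadjusted p under 0.05 there was 1 gene, VEGFA, which lay 0.17 higher on the log2 scale at 20 mM (adjusted p = 0.718 from limma), against 6.87% of all genes, and limma-voom also called 0. The libraries of the doses did not overlap for VEGFA, higher at 20 mM, and for CA9, CA12 and BNIP3, lower at 20 mM, against 4.71% and 7.15% of all genes. Against the control, libraries did not overlap for 2 genes higher (NDRG1 and ADM) and 3 lower at 10 mM, where the shares of all genes were 17.8% and 22.7%. At 20 mM they did not overlap for 2 genes higher and 5 lower, where the shares were 23.3% and 29.9%. The comparisons of the doses with the control share the same 3 control libraries.

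By level, the order in the control was HIF1A, BNIP3, VEGFA, NDRG1, ADM, BNIP3L, CA12, EGLN1, EGLN3 and CA9, with overlapping ranges for VEGFA and NDRG1 and for CA12 and EGLN1. These are FPKM levels, per exon length, and the order depends on the lengths used: 5151 bases for HIF1A, 14431 for VEGFA and 12002 for NDRG1. In summed reads VEGFA and NDRG1 stood above HIF1A at both doses. The reads were 51881, 48927 and 38760 at 10 mM 2-DG and 55298, 49053 and 33330 at 20 mM, in that order of genes. HIF1A stood at the 96.8 percentile of the mean FPKM of all genes tested, BNIP3 at 95.1, NDRG1 at 92.6 and VEGFA at 92.1. At the low end, CA12 stood at the 49.5 percentile, EGLN3 at 42.8 and CA9 at 18.8. Both treated groups had the same order of means except that NDRG1 stood above VEGFA and EGLN1 above CA12. At 20 mM the CA12 and EGLN3 libraries overlapped and those of NDRG1 and VEGFA did not.

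The spread between libraries also differed among the 10 genes. In the control, the coefficient of variation was 1.14% for ADM and 5.27% for NDRG1, and reached 14.7% for HIF1A, 23.8% for EGLN1 and 38.1% for CA9. Counting error alone would give 0.770% in HIF1A, 4.50% in EGLN1 and 16.0% in CA9. HIF1A, EGLN1 and CA9 thus varied between control libraries beyond their counting error. So did VEGFA (7.11% against 0.839%), NDRG1 (5.27% against 0.931%), BNIP3 (6.40% against 1.17%) and BNIP3L (7.87% against 1.89%). The gap was smaller for EGLN3 (6.89% against 4.50%) and CA12 (4.42% against 3.41%). ADM was below its counting error of 2.38%.

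Of the non-coding neighbours of HIF1A and ADM looked at after their values were seen, HIF1A-AS3 and ADM-DT were higher under 2-DG. HIF1A-AS1 had fewer reads at 20 mM 2-DG. HIF1A-AS3, on the minus strand at 61715558 to 61751097 of chromosome 14 and without shared exon bases with HIF1A, was at 1.69, 2.46 and 2.91 FPKM in the control, at 4.56, 4.10 and 6.27 at 10 mM 2-DG and at 7.03, 6.33 and 4.34 at 20 mM 2-DG. Every treated library was above every control library. It rose by 0.83 on the log2 scale at 10 mM (adjusted p = 0.00988) and by 1.04 at 20 mM (adjusted p = 0.00237, both from limma's test). ADM-DT, on the minus strand at 10302657 to 10303704 of chromosome 11 next to ADM, went from a mean of 0.139 ± 0.0878 FPKM to 0.571 ± 0.283 at 10 mM and 0.802 ± 0.307 at 20 mM (SD, n = 3). Its log2 fold changes were 0.45 and 0.65 (adjusted p = 0.0479 and 0.00747 from limma), on between 2 and 35 reads per library. The control libraries held 2, 7 and 3 reads, so ADM-DT passed the read filter only through treated libraries. A gene kept in that way tends to be higher under treatment, so these p-values are no support for a rise of ADM-DT. HIF1A shares 117 exon bases with another antisense gene, HIF1A-AS1, which had too few reads to be tested. It had 22 reads summed over the control libraries, 12 over those at 10 mM and 2 over those at 20 mM. Of the 12 reads at 10 mM, 11 were in replicate 2, and the 10 mM libraries overlapped the control. Each 20 mM library lay below every control library. HIF1A also shares 148 exon bases with the non-coding AL137129.1 on its own strand. BNIP3L shares 330 exon bases with PNMA2 on the opposite strand, which fell by 0.76 at 10 mM and by 0.75 at 20 mM on the log2 scale (adjusted p = 0.00148 and 0.00115 from limma), and VEGFA shares 188 with a non-coding antisense gene. Reads in bases shared with the opposite strand cannot be told apart without the strand of counting, and those shared with AL137129.1 cannot be told apart by strand.

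**Figure D3:**
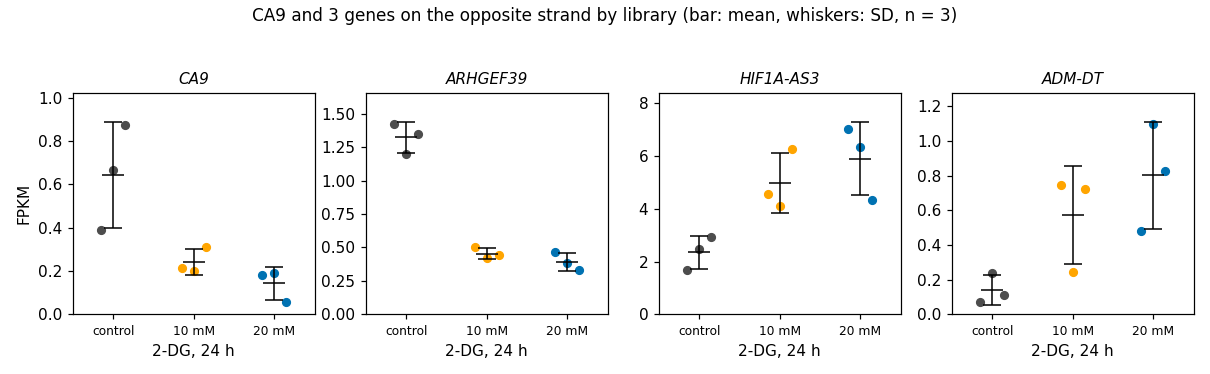
FPKM of CA9, of ARHGEF39, which shares exon bases with it, and of HIF1A-AS3 and ADM-DT, on the strand opposite to HIF1A and ADM, in each of the 9 libraries; points are libraries, the long bar is the mean and the whiskers are 1 SD (n = 3). CA9 and ARHGEF39 are lower in every treated library and the other 2 genes are higher in every treated library.

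The rest of the oxygen sensing machinery moved in both directions, and at 20 mM 2-DG the share called was near that of all genes. Of 23 such genes 22 were tested (HIF3A was not). At 20 mM 2-DG 3 were called higher, 6 lower and 13 not. The share called was 40.9%, against 37.0% of all genes (15.3% higher, 21.6% lower). SIAH2, a ubiquitin ligase that acts on prolyl hydroxylases, went from 8.97 ± 1.00 to 13.9 ± 1.29 FPKM (SD, n = 3), a rise of 0.58 on the log2 scale. OS9, a lectin of endoplasmic reticulum quality control, rose by 0.52 and RACK1, a ribosomal scaffold protein, by 0.45. ARNT2, a dimer partner of HIF alpha subunits, went from 3.11 ± 0.395 to 0.973 ± 0.234 FPKM and fell by 1.06 on the log2 scale (adjusted p = 6.92e-05 from limma's test). HSP90AA1, the inducible HSP90 chaperone, fell by 0.54, NEDD8, the modifier of cullins, by 0.36, RBX1, their RING subunit, by 0.33 and USP20, a deubiquitinase, by 0.26. The number lower was 3 without control replicate 1, without 20 mM replicate 1 or without 20 mM replicate 2. It was 3 with median-ratio and 2 with upper-quartile scaling. At 10 mM 3 were called higher and 5 lower, 36.4% against 29.6% of all genes (12.1% higher, 17.5% lower). Without control replicate 3 these counts were 1 higher and 3 lower. The number lower at 10 mM was also 3 with median-ratio scaling, with upper-quartile scaling and in a fit of the 6 libraries compared, and the number higher was 1 when all genes above 0 were tested.

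HIF targets outside glycolysis also moved in both directions, with a share called in either direction near that of all genes. In the fit of all 9 libraries without further scaling, more of them were called higher than lower at both doses. Of all genes, more were called lower than higher. This difference was not tested. Of 45 genes 42 were tested (EPO, FLT1 and TF were not). At 20 mM 2-DG 11 were called higher, 6 lower and 25 not, with a median of -0.07. The share called was 40.5%, against 37.0% of all genes (15.3% higher, 21.6% lower). HMOX1, the haem-degrading enzyme, went from 15.3 ± 0.943 to 34.7 ± 4.93 FPKM (SD, n = 3), a rise of 1.12 on the log2 scale (adjusted p = 3.76e-05 from limma's test). VLDLR, a lipoprotein receptor, rose by 0.58, KDM3A, a histone demethylase, by 0.55, ANKRD37 by 0.46 and LOX, which cross-links collagen, by 0.44. STC1, a secreted glycoprotein, went from 22.0 ± 2.68 to 10.3 ± 0.261 FPKM and fell by 1.02 on the log2 scale (adjusted p = 9.61e-05). SAP30, a subunit of the SIN3 corepressor, fell by 0.59, LOXL2, a relative of LOX, by 0.51, CCNG2, a cyclin, by 0.34 and ZNF395 by 0.33. The number higher was 7 without control replicate 1 or without 20 mM replicate 3. The number lower was 3 without control replicate 3, 20 mM replicate 1 or 20 mM replicate 2, and 3 with upper-quartile scaling. At 10 mM 9 were called higher and 3 lower, 28.6% against 29.6% of all genes (12.1% higher, 17.5% lower). Without control replicate 1 the number higher was 5, and without 10 mM replicate 2 the number lower was 6.

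The glycolytic HIF targets were mostly lower. All 21 genes were tested, and at 20 mM 2-DG 3 were called higher, 14 lower and 4 not, 81.0% against 37.0% of all genes, with a median of -0.36 against -0.02 for all genes. ALDOC, an aldolase, went from 5.49 ± 0.318 to 2.04 ± 0.491 FPKM (SD, n = 3) and fell by 1.11 on the log2 scale (adjusted p = 0.000153 from limma's test). HK2, a hexokinase, fell by 0.67, PGK1 by 0.49, and TPI1 and PFKL, further enzymes of the pathway, by 0.48 each. SLC2A3, a glucose transporter, went from 11.2 ± 0.698 to 20.8 ± 0.793 FPKM and rose by 0.84, PFKFB3, which makes the activator of phosphofructokinase, rose by 0.29 and the hexokinase HK1 by 0.20. Without control replicate 3 or 20 mM replicate 1 the number higher was 1. At 10 mM 1 was called higher and 14 lower, 71.4% against 29.6% of all genes. The number lower at 10 mM was 8 without control replicate 1, 9 without 10 mM replicate 3, 8 with median-ratio and 9 with upper-quartile scaling. PGK1, TPI1, HSP90AA1 and RACK1 have near-identical pseudogene copies, between which the counting of the authors could have split reads.

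**Figure D4:**
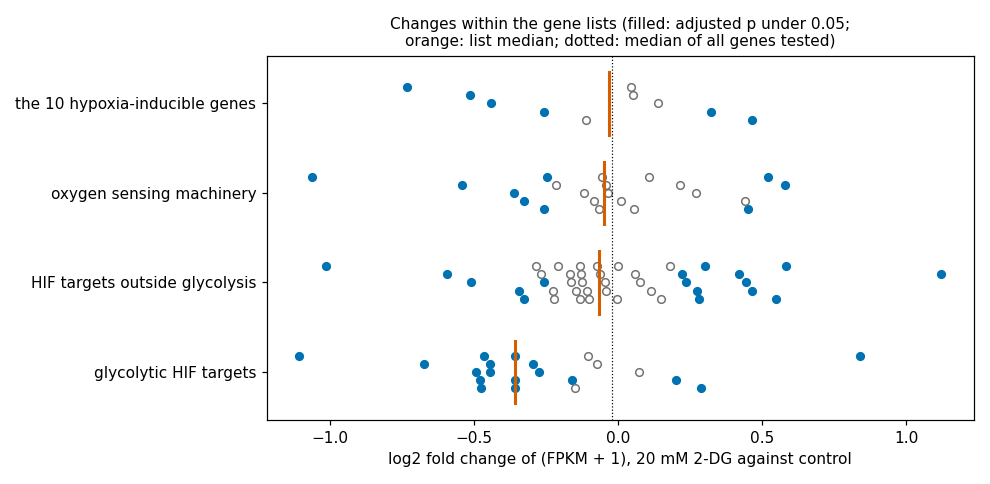
Log2 fold change of FPKM + 1 at 20 mM 2-DG against control (x axis) of each gene tested in the 10 hypoxia-inducible genes and the 3 lists (rows); filled points have an adjusted p under 0.05, the orange bar is the median of a list and the dotted line is the median of all genes tested. The glycolytic targets have a median of -0.36, and the other rows lie between -0.07 and -0.03.

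Genes with the pattern nearest to a member were found among 10426 named genes. The measure was the root mean square difference of log2(FPKM + 1), centred on the control mean, over the 9 libraries. A direction of change shared with the member follows from this choice and is not a separate result. Nearest to HIF1A were RB1 (0.0484), CCDC14 (0.0498) and SUZ12 (0.0532), which all had lower means at 20 mM 2-DG than in the control (RB1 2.89 against 4.43 FPKM). Nearest to NDRG1 were SGPL1 (0.0321), UBN1 (0.0378) and M6PR (0.0434), with higher means at 20 mM (M6PR 39.9 against 29.5 FPKM). Nearest to CA12 were TIMP2 (0.0470), CPSF3 (0.0594) and CCBE1 (0.0701), with lower means at 20 mM (TIMP2 30.0 against 49.2 FPKM).

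Library totals recovered from the FPKM values were between 30974968 and 40843638 reads. The 7 genes taken as markers of this mesenchymal-like line were between 11.4 and 313 FPKM in every library. Of 10 genes taken as low or absent in it, 5 were under 1 FPKM in every library. ESR1 was at most 0.00829 and PGR at most 0.0204 FPKM, ERBB2 was between 5.53 and 9.11, and of the others EPCAM, GATA3, PECAM1 and COL1A1 reached 1 FPKM in some library.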

How the data were processed

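RNA of 9 libraries (3 each of control, 10 mM and 20 mM 2-DG, 24 h) was extracted with an RNeasy kit, prepared with a SMARTer mRNA-Seq kit and sequenced on an Illumina NovaSeq instrument, per the labels and the methods of the study. The authors deposited FPKM values per gene, 1 file per library, with genes counted on GRCh38 (hg38), per the submitters' processing notes. The unit was inferred from the values. The aligner, counter, annotation release and strand are not given in the sources used here. Of 61552 genes, 20495 carry no name.

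Library totals were worked back from FPKM with exon lengths of GENCODE release 29. With these totals, the smallest gene length that makes all 9 values whole reads, within 1e-06 reads plus 2e-08 of the reads, was searched per gene and found for 32804 of 32806 genes above 0. The GENCODE length was used where it is a multiple of the length found (48.6% of the genes above 0). For 8 of the 10 genes described, HIF1A and VEGFA excepted, the length used differs from that of GENCODE 29. The reads are therefore not the authors' counts, and a common factor of reads and length cannot be seen. A gene was tested if 3 or more libraries held 10 or more of its reads, scaled to the median depth, and its sum was 15 or more (16571 genes). limma 3.58.1 in R 4.3.3 was fitted with a trend on log2(FPKM + 1) over all 9 libraries, with Benjamini-Hochberg adjustment; the steps were checked on simulated data. Groups came from the sample titles.

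The 10 genes and the 3 lists, written from general knowledge, were chosen with earlier results of these data known. All 10 genes are named, and per list and direction up to 5 called genes with the largest change at 20 mM. Genes of like pattern are the 3 nearest to HIF1A, to the largest rise and to the largest fall. Other genes were named after their values were seen. No pair of replicates was taken for 1 library, as their reads differed beyond sampling noise. Scaling, filter, pseudocount, fit, threshold and libraries were varied.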

Additional observations from a re-analysis of the deposited data

How the results depend on the processing

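Of the 9 called fold changes of the 10 genes, 135 of 151 alternative fits kept the call, 16 lost it and 0 turned the direction; these losses were 9 for EGLN3 and 6 for HIF1A at 20 mM 2-DG, and 1 for CA9 at 10 mM. At 10 mM the number of the 10 genes called higher was 2 in place of 1 with upper-quartile factors, where VEGFA passed (adjusted p = 0.0477 from limma), and the number lower was 1 in place of 2 when all genes above 0 were tested or a mean FPKM of at least 1 was asked, which leaves CA9 out. At 20 mM the number lower was 2 in place of 4 when all genes above 0 were tested and with upper-quartile factors, and ranged from 2 to 4 as single libraries were left out. With a fold change threshold of 1 (log2, either sign) and no adjustment of p, all these counts were 0 on the log2(FPKM + 1) scale. In limma-voom, without that pseudocount, CA9 (-1.34 at 10 mM, -2.17 at 20 mM) and CA12 (-1.04 at 20 mM) lay past this threshold. The share of all genes past it in limma-voom was not computed. Uncalled values turned sign for BNIP3 at 10 mM (0.0087 with median-ratio factors, 0.0355 with upper-quartile factors, -0.0652 to 0.0214 as single libraries were left out, the highest without control replicate 3), BNIP3L at 20 mM (-0.0059, without control replicate 1, to 0.102), EGLN1 at 10 mM (-0.14 to 0.17, below 0 without control replicate 1, control replicate 3 or 10 mM replicate 1) and ADM between doses (-0.0917 to 0.0033, the highest without 20 mM replicate 3). The cause was not tested. Replicate numbers did not pair the libraries: deviations of same-numbered libraries correlated between -0.406 and 0.293, and those of differently numbered libraries between -0.23 and 0.521. The highest was between control replicate 1 and 10 mM replicate 2. With a replicate block EGLN3 at 20 mM was not called (adjusted p = 0.0732 from limma) while the 8 other calls stayed. Over all genes, upper-quartile factors moved the share of calls that were higher from 40.9% to 51.6% at 10 mM (2481 higher, 2323 lower, in place of 2011 and 2902) and from 41.5% to 54.1% at 20 mM (3277 and 2780, in place of 2543 and 3580). Few reads limit CA9, and the spread between libraries limits CA9, HIF1A and EGLN1.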
